A study of Homo sapiens with 2 samples.

Results

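The 9 genes described here encode enzymes that turn squalene into cholesterol: SQLE, LSS, CYP51A1, TM7SF2, MSMO1, NSDHL, EBP, SC5D and DHCR7. They were taken by name from a given list of enzymes after squalene, each with a probe of 1 gene symbol, and they are 9 of the 18417 genes measured. Signals came from 2 Affymetrix microarrays of HepG2, a human hepatoma cell line grown in MEM medium. The control group was 1 array of unexposed HepG2 cells, and the exposed group was 1 array of HepG2 cells given amorphous silica nanoparticles (SiO2-NP) at 100 mg/L for 24 h. Replicate cultures, the particle size and a vehicle for the control cells are not named in the labels. Of the hepatoma markers, 9 of 10 were measured and all 9 were above the level filter described below, with ALB, which encodes albumin, at a log2 intensity of 13.50 in the control and 13.41 in the exposed cells. AFP, the fetal serum protein of many hepatomas, read 13.06 and 13.04. Of the markers of other cell types, 4 of 5 leukocyte, 5 of 5 endothelial and 5 of 6 fibroblast genes were below that filter, and CD68 and COL1A1 were above it.

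Squalene is the last open-chain intermediate of cholesterol synthesis. SQLE oxidises it, LSS closes it into the ring system of lanosterol, and the later enzymes strip methyl groups from the rings and move or reduce their double bonds until cholesterol is left. In liver cells these genes are known targets of SREBP-2, a transcription factor that SCAP escorts from the endoplasmic reticulum when membrane sterol is low and that INSIG proteins hold back when it is high. DHCR7 also consumes the sterol from which vitamin D is made in skin.

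All 9 enzymes had a higher signal after SiO2-NP than in the control. Their median log2 difference, SiO2-NP minus control, was 0.52, or 1.44-fold, and the members ran from 0.23 to 0.83. With 1 array per group no value has a replicate error, so no test was possible, and "higher" and "lower" describe these 2 arrays and not the conditions. The 9 members were selected on their pathway place with these same differences between the 2 arrays already known, so the differences are a description. The level filter kept genes with a mean of at least 7.26 over the 2 arrays, which is the median of all gene means; it left 9209 genes and all 9 members. Among those 9209 genes the median difference was -0.03, 40.2% were higher, and the central 95% of differences lay between -0.37 and 0.28. Every member except MSMO1 was above that range. In RNA from a whole culture, a change in RNA per cell and a change in the share of cells cannot be told apart.

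**Figure D1:**
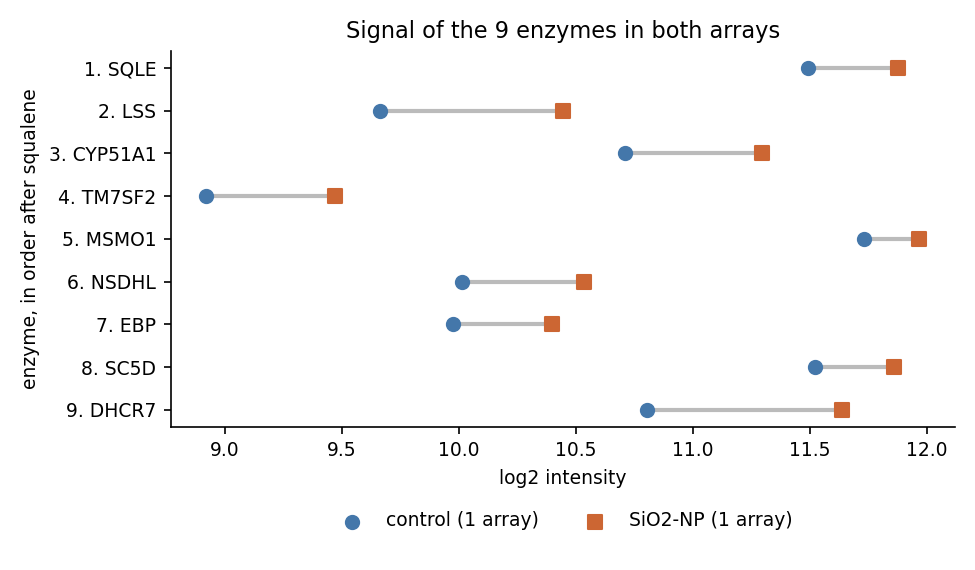
Log2 intensity (x axis) of each enzyme in the control array (circles) and the SiO2-NP array (squares), with the enzymes in pathway order on the y axis and grey lines joining the 2 values of a gene. Each square lies to the right of its circle, by 0.23 in MSMO1 and by 0.83 in DHCR7; positions of different genes do not compare their transcript levels, because each has its own probe.

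Promoter sequence was one thing the members could be compared on apart from their signals. RefSeq windows of GRCh38.p14, each running from 250 bases before a gene start to 50 bases after it, were given for 8 of the 9 members. SREBPs are known to act together with the factors NF-Y and Sp1, so the letters CCAAT (the NF-Y box, ATTGG on the other strand) and GGGCGG (the GC box) were searched on both strands, with CACGTG (an E-box) and the sterol element forms TCACNCCAC and CACCCCAC. The 250 bases before the start are shown for the members with the largest differences, DHCR7 and LSS, for the member with the smallest, MSMO1, and for CYP51A1, the 1 member of the 8 with no CCAAT. They read 5′ to 3′ along the gene, with CCAAT on either strand in capitals. DHCR7 lies on the minus strand and has 2 annotated starts, of which the one with motif matches is shown, chr11:71448394-71448643. LSS lies on the minus strand at chr21:46228775-46229024, CYP51A1 on the minus strand at chr7:92134478-92134727, and MSMO1 on the plus strand at chr4:165327419-165327668.
DHCR7: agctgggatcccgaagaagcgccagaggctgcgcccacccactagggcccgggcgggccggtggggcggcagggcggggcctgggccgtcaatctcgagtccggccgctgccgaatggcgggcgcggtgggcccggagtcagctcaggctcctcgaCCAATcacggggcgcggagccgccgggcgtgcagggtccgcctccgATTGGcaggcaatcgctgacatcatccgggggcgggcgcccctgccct
LSS: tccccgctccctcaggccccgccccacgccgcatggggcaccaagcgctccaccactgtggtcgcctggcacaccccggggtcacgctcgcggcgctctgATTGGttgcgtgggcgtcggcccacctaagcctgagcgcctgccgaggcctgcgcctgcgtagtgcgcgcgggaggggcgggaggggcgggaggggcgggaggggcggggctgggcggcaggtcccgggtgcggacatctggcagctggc
CYP51A1: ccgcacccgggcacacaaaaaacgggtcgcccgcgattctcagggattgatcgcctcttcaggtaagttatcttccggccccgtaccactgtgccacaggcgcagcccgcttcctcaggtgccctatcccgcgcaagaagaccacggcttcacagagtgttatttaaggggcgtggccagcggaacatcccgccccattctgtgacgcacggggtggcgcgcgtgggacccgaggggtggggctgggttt
MSMO1: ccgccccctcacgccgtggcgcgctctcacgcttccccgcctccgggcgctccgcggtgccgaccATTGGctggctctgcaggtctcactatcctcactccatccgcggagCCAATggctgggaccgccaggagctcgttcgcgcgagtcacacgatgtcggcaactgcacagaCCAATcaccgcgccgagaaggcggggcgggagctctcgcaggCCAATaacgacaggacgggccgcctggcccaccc

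CCAAT was present in 7 of the 8 members with a window, against 39.7% of 27305 genes with windows and 43.3% of the 7530 such genes above the level filter. NSDHL held 5 copies, of which a pair overlap as CCAATTGG, MSMO1 held 4, EBP 3 and DHCR7 2. LSS, TM7SF2 and SC5D held 1 each. GGGCGG was also present in 7 of 8, the exception being NSDHL, against 78.6% of the genes above the filter, so the members were close to the other genes in this motif. LSS held 7 copies of GGGCGG, and TM7SF2 and DHCR7 held 4 each. All copies of both motifs in DHCR7 lay at the start shown, and its other start held none of the motifs searched. CACGTG was found in LSS and SC5D, against 13.2% of genes above the filter. Neither sterol element form was found in a member window, and each was rare in general, in 1.54% of genes above the filter for TCACNCCAC and 3.63% for CACCCCAC. A match is a run of letters and not a bound site, and a missing match says only that these letters are not in this window. A link between the copy number of CCAAT and the size of a difference was not tested. The differences were 0.52 for NSDHL with 5 copies, 0.23 for MSMO1 with 4, 0.42 for EBP with 3 and 0.83 for DHCR7 with 2. With 1 copy each, LSS had 0.78, TM7SF2 0.55 and SC5D 0.34, and CYP51A1, with none, had 0.58.

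**Figure D2:**
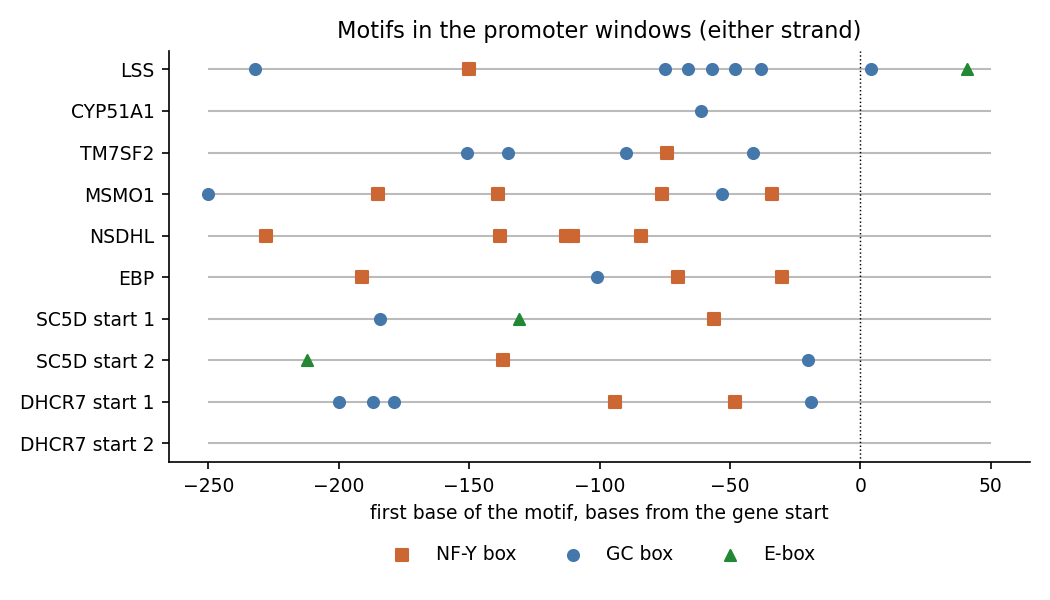
Positions of the NF-Y box (CCAAT, squares), the GC box (GGGCGG, circles) and the E-box (CACGTG, triangles) on either strand in the RefSeq promoter windows of 8 members; the x axis gives bases from the gene start, each grey line is 1 window of 300 bases, and SC5D and DHCR7 have 2 annotated starts each. NF-Y boxes lie in 7 of the 8 members, 5 of them in NSDHL, and the second DHCR7 window holds none of the motifs.

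The entry into the ring pathway was uneven. SQLE, the monooxygenase that puts an oxygen onto squalene and is regarded as a rate-limiting step, had a log2 intensity of 11.49 in the control and 11.88 after SiO2-NP. Its difference of 0.38 (1.30-fold) was the 84th largest of the 9209 genes. LSS, the cyclase that takes the product of SQLE and makes lanosterol, had 9.67 and 10.45. Its difference of 0.78 (1.72-fold) was the 8th largest, so within a single step of the pathway the difference went from 0.38 to 0.78. LSS is also the member whose promoter is shown above with a run of GC boxes close to the start. A link between GC boxes and the size of a difference was not tested.

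The next pair of enzymes removes the first methyl group of lanosterol and reduces the double bond that this leaves. CYP51A1, the cytochrome P450 that takes off the methyl group, is the 1 member with 2 probes. The first read 10.30 in the control and 10.92 after SiO2-NP, a difference of 0.61, and the second read 11.12 and 11.68, a difference of 0.55. Both probes were thus higher after SiO2-NP, and their average gave a difference of 0.58, just short of the 1.5-fold mark of 0.585 used below. TM7SF2, the sterol reductase that follows, had 8.92 and 9.47, a difference of 0.55 (1.46-fold). LBR, a nuclear envelope protein related to TM7SF2 that carries the same reductase activity, had 10.13 in the control and 10.11 after SiO2-NP. Its difference of -0.03 was close to the median of all genes and changed sign with the scaling, from -0.07 to 0.02. The 2 genes for this step therefore had different values in these arrays, 0.55 and -0.03, with no test of the gap.

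The enzymes that remove the remaining methyl pair act in turn on the same carbon. MSMO1, the methyl sterol monooxygenase that starts this, had 11.73 in the control and 11.97 after SiO2-NP. Its difference of 0.23 (1.18-fold) was the smallest of the members, and 361 genes of the 9209 had a larger one. NSDHL, the dehydrogenase that completes the decarboxylation, had 10.01 and 10.54, a difference of 0.52 (1.44-fold). HSD17B7, which reduces the ketone that is left, is not a member, because its probe is also assigned to the pseudogene HSD17B7P2. That shared probe read 8.60 in the control and 9.23 after SiO2-NP, a difference of 0.63, and it cannot be attributed to the enzyme alone. A probe assigned only to HSD17B7P2 differed by 0.57, so the signal of both probes was higher after SiO2-NP.

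The last steps move double bonds and reduce them. EBP, the isomerase that shifts a double bond within the ring, had 9.97 in the control and 10.40 after SiO2-NP, a difference of 0.42 (1.34-fold). SC5D, the desaturase that follows, had 11.52 and 11.86, a difference of 0.34 (1.27-fold). DHCR7, the reductase that ends one of the branches to cholesterol, had 10.80 and 11.64. Its difference of 0.83 (1.78-fold) was the largest of the members and the 5th largest of all 9209 genes. Among the 9 members DHCR7 and LSS thus stood at the top, and the other 7 lay at 0.23 to 0.58.

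**Figure D3:**
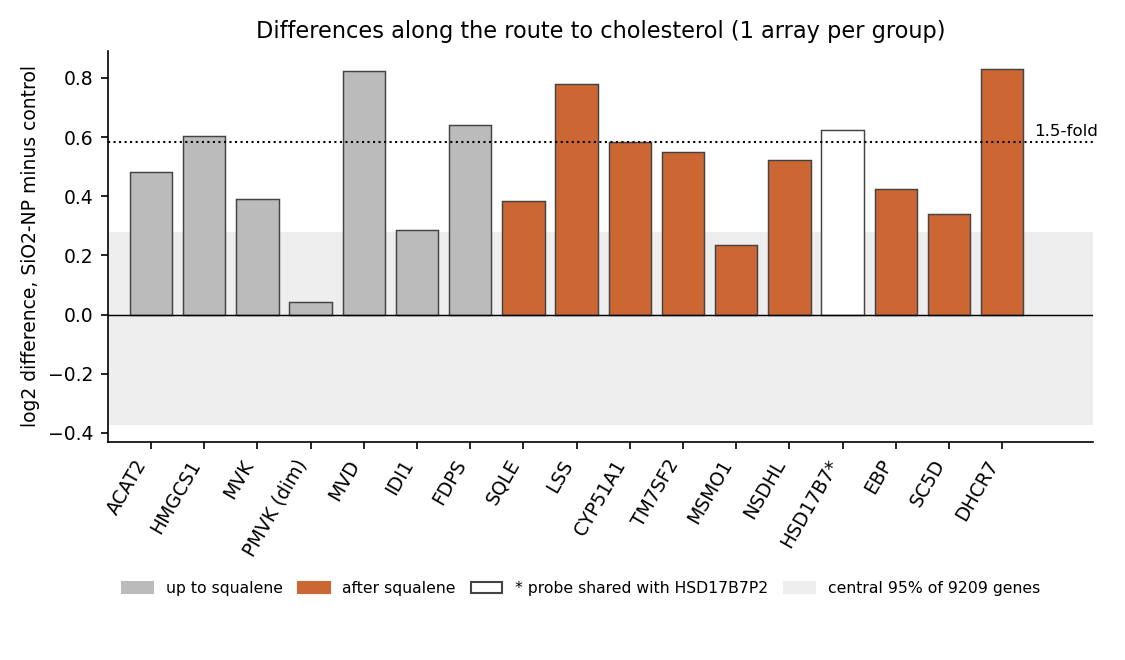
Log2 difference, SiO2-NP minus control (y axis), for enzymes in pathway order (x axis): grey bars are enzymes up to squalene, orange bars the 9 members, and the white bar the probe shared by HSD17B7 and HSD17B7P2. The shaded band is the central 95% of 9209 genes (-0.37 to 0.28), the dotted line is 1.5-fold, and PMVK is marked as dim because it was below the level filter; of the orange bars, LSS and DHCR7 cross the line and MSMO1 ends within the band.

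Counted at fixed folds, 2 of 9 members, LSS and DHCR7, were at least 1.5-fold higher, where 0.141% of the 9209 genes were (13 genes, the 2 members among them). At 25% or more above the control the count was 8 of 9, all but MSMO1, against 1.52% of genes (140), and at 2-fold it was 0 of 9 against 0.0109% of genes. The 1.5-fold count depended on the scaling because CYP51A1 and TM7SF2 lay close to the mark: it was 4 when differences were centred on a running median along the level axis, and 4 after quantile normalization, where CYP51A1 reached 0.61 and 0.63 and TM7SF2 0.59 and 0.60. Those scalings also moved the counts over all genes from 13 higher and 23 lower to 21 and 19, and to 22 and 18; centring both arrays on their median gave 10 and 46. The order of the 9 members by difference was the same after running-median centring and quantile normalization as in the main values. Centring both arrays on their median shifts every difference by the same amount, so it could not change the order.

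The 3 members with the smallest differences shared 2 further properties, both picked out after the values were seen. The first is their chemistry. SQLE, CYP51A1, MSMO1 and SC5D use molecular oxygen, and these 4 had a median difference of 0.36 (0.23 to 0.58). The 5 members that do not, LSS, TM7SF2, NSDHL, EBP and DHCR7, had a median of 0.55 (0.42 to 0.83). The ranges overlap, since CYP51A1 lay above NSDHL, EBP and TM7SF2. The second is brightness. MSMO1, SC5D and SQLE, the 3 members with the smallest differences, also had the brightest probes, with mean log2 intensities of 11.85, 11.69 and 11.69. Over the 594 genes with a mean of 11 or more, the central 95% of differences was -0.31 to 0.29, close to that of all genes, and 15 of them were higher by at least 25%. Of the 5 members in this set, 4 were among those 15. DHCR7 had the largest difference of the 594 and CYP51A1 the third largest, while SQLE, SC5D and MSMO1 were at ranks 9, 12 and 21. All 4 members that use oxygen were among these 5 bright members, with DHCR7 the other, so the 2 properties largely coincide and cannot be told apart. The part of probe brightness in the order of the members was not tested.

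**Figure D4:**
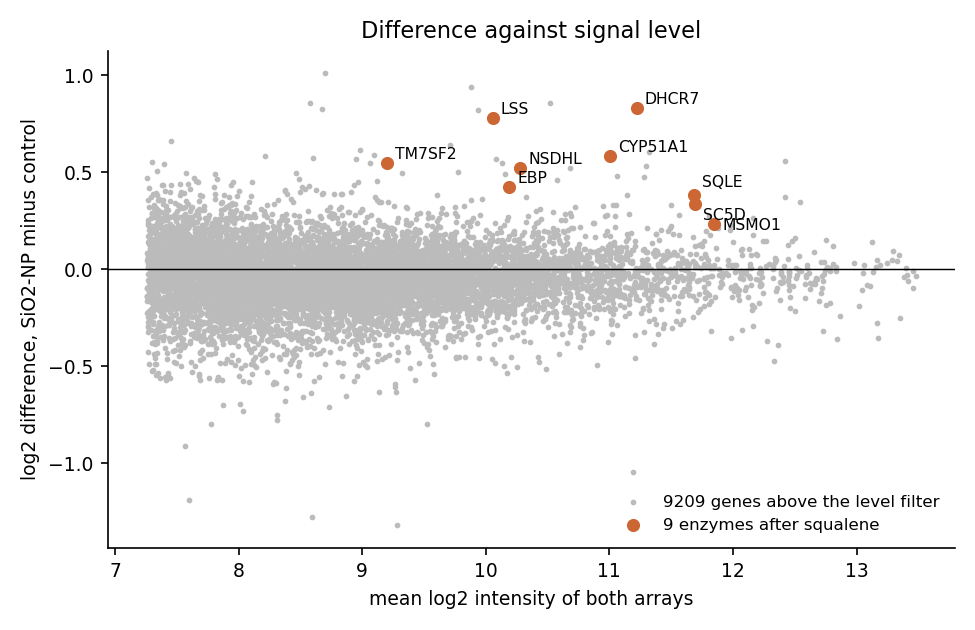
Log2 difference, SiO2-NP minus control (y axis), against mean log2 intensity of both arrays (x axis) for the 9209 genes above the level filter (grey) and the 9 members (orange, named). The members run from TM7SF2 at a mean of 9.20 to MSMO1 at 11.85; all but MSMO1 lie above the central 95% of the grey points (-0.37 to 0.28), and the 3 brightest are the lowest of the orange points.

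The mevalonate arm, which builds squalene from acetyl units, had differences of the same size. Of 9 genes listed, 7 had a probe of their own, 6 of them above the level filter, and the others were not analysed here. All 6 were higher, against 40.2% of all genes, with a median of 0.54, and 3 were at least 1.5-fold higher, against 0.141%. Of those 3, HMGCS1 fell short of the 1.5-fold mark, at 0.56, when both arrays were centred on their median. MVD, the decarboxylase that makes isopentenyl diphosphate, differed by 0.82 (9.52 and 10.35), FDPS, which makes farnesyl diphosphate, by 0.64, and HMGCS1, the synthase that makes HMG-CoA, by 0.60. A further 2 probes, assigned to both FDPS and the pseudogene FDPSP2 and left out for that reason, differed by 0.23 and 0.30, below the 1.5-fold mark. ACAT2, the acetyl-CoA acetyltransferase at the head of the route, differed by 0.48, the kinase MVK by 0.39 and the isomerase IDI1 by 0.29. PMVK, the next kinase, was below the filter at 7.05 and 7.09. The 2 arms thus shared a median near 0.5 and a wide spread between steps, and no test of a difference between them was possible with 1 array per group.

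Genes that serve the enzymes without being part of the route had smaller differences. POR, the reductase that passes electrons to SQLE and CYP51A1, had 11.14 in the control and 11.12 after SiO2-NP, a difference of -0.02 whose sign changed with the scaling (-0.06 to 0.02). The cytochrome b5 system, which serves MSMO1 and SC5D, had 0.05 for CYB5A, 0.15 for CYB5B, 0.18 for the reductase CYB5R3 and -0.07 for CYB5R1. The median of these 5 electron donors was 0.05, and 0 of 5 were higher by 25%, as were only 1.52% of all genes, so that count says little. ERG28, a membrane protein thought to tether the enzymes of methyl removal, was the exception among 5 measured genes of turnover and scaffolding, with 12.23 in the control and 12.60 after SiO2-NP (0.37). Of that list, MARCHF6, the ubiquitin ligase known to mark SQLE for degradation, differed by 0.00, RNF139 by -0.07 and FAF2 by -0.09. MARCHF6 was outside the naming rule and was named after its value was seen.

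Other relatives of the enzymes were mixed. FAXDC2, a relative of MSMO1, differed by 0.31 (8.03 and 8.34). CH25H, a hydroxylase of the same family as MSMO1 and SC5D, differed by -0.41 and SDR42E1, a relative of NSDHL, by 0.33, both below the level filter. EBPL, a relative of EBP without its activity and named after its value was seen, had 10.51 and 10.55, a difference of 0.04 where EBP had 0.42.

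Of 12 listed genes that control SREBP and sterol uptake, 2 had no probe of their own and were not analysed here. Among the 10 measured, 9 were above the filter and their median was 0.11, which does not cover the 2 missing genes. SREBF2, which encodes SREBP-2 itself, had 9.08 in the control and 9.57 after SiO2-NP (0.50). STARD4, a carrier that moves cholesterol between membranes, differed by 0.62 and NPC1, which exports it from lysosomes, by 0.29. SREBF2, STARD4 and NPC1 were the 3 largest differences of the list. SCAP differed by 0.04, INSIG2 by 0.11, MBTPS2 by -0.12 and INSIG1, which was below the filter, by 0.09. These other genes were outside the naming rule and were named after their values were seen. Of the 9, 8 were higher, against 40.2% of all genes above the filter. That count was 6 after centring both arrays on their median because SCAP and MBTPS1 lay near 0. On the side of cholesterol use and export, 1 of the 7 genes above the filter was higher, where 40.2% of all genes were, and the median was -0.12. That median rested on the filter, since over all 13 measured genes of the list, 6 of them dim, it was -0.0033. CYP7A1, which starts the conversion of cholesterol to bile acids, read 8.06 in the control and 7.68 in the exposed cells (-0.39), and ABCA1, the exporter that loads cholesterol onto HDL, differed by -0.17. The count of higher genes in this list was up to 3 under the other scalings, since SOAT1 and CYP27A1 lay at -0.00. Fatty acid synthesis genes, which SREBP-1 is known to drive, were higher in 9 of 10 above the filter, against the same 40.2%. Their median was 0.53, with ACSS2 at 0.94, FADS2 at 0.86 and SCD at 0.56.

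**Figure D5:**
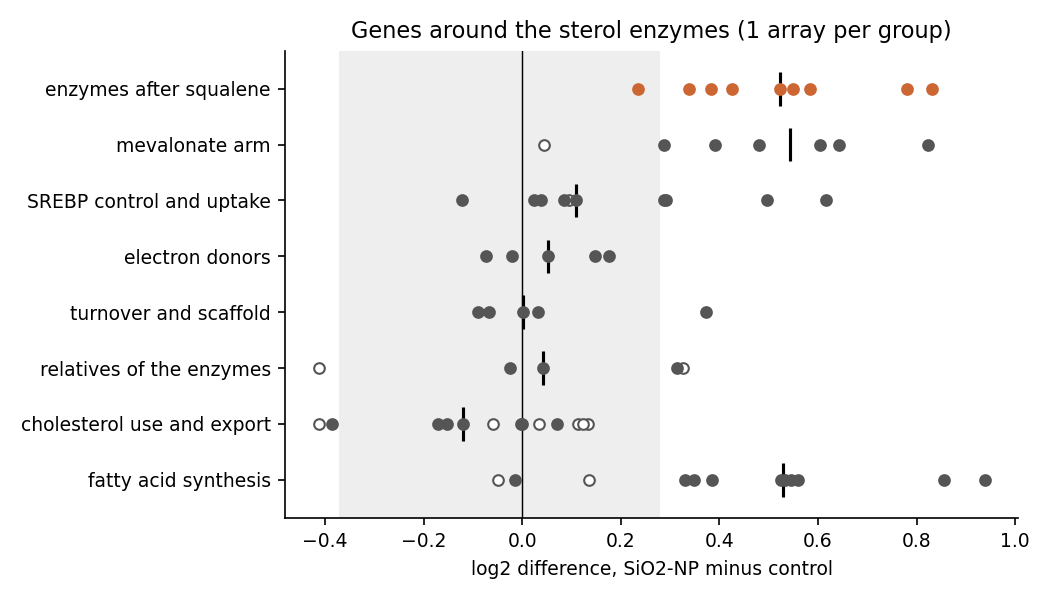
Log2 difference, SiO2-NP minus control (x axis), of each measured gene in 8 groups (y axis); filled points are above the level filter and open points below it, black ticks are medians of the filled points, orange marks the 9 members and the shaded band is the central 95% of 9209 genes. The members, the mevalonate arm and fatty acid synthesis have medians of 0.52, 0.54 and 0.53, the electron donors 0.05 and cholesterol use and export -0.12 (-0.0033 with its 6 open points counted).

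Of the genes above the level filter and outside the 9 members, 22 had a difference at or above the member median of 0.52, which is the only likeness that 2 arrays allow. Of these, 10 were in the lists of the mevalonate arm, SREBP control and uptake, or fatty acid synthesis, lists that were drawn up with earlier results of these arrays known. The other 12 were in none of the lists used here. The largest difference was that of ALDOC, a glycolytic aldolase (1.01), followed among the unlisted genes by TMC7 (0.86), the repressor BHLHE40 (0.83), the membrane protease PRSS8 (0.66), the glucose transporter SLC2A3 (0.59), which shares sequence with SLC2A14, the RNA-binding protein DND1 (0.58) and the microtubule protein MAP1B (0.57). HSD17B7P2, described above, CLCN6, FZD2, MATN3 and SGK2 lay between 0.55 and 0.57. ACTB and GAPDH, 2 common reference transcripts, differed by -0.00 and 0.10, and ALB by -0.10.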

How the data were processed

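The deposited table holds 1 log2 intensity per probe (transcript cluster) and array; the log2 scale was read from the values, which ran from 2.08 to 14.35. Per the submitters' processing notes, RMA and MAS5 were used; for their roles and versions and for the genome build, no source used here gives an answer. RMA makes the arrays' distributions alike and would hide a shift common to most transcripts. Of 33297 probes, 19460 had 1 gene symbol in the platform annotation, 1754 had several and 12083 none; the first kind was averaged per gene, giving 18417 genes. All 9 members matched RefSeq by gene identifier. Arrays have no read depth; precision is limited by their number.

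The members and lists were chosen with earlier results of these data known. Differences are SiO2-NP minus control, with no test. Genes named were the members; all measured genes of the mevalonate, electron donor and other post-squalene lists; the 3 largest absolute differences of each other pathway list; up to 20 non-members at or above the member median; and ACTB, GAPDH and ALB. Alternatives were other level filters, folds, scalings, probe rules and a shorter promoter window. The calculation of differences and the running median were run on simulated data with known folds. Probe averaging, list summaries and the promoter search were not tested in this way. Software was pandas 2.3.3 and NumPy 2.4.6 under Python 3.11.15, with matplotlib 3.10.9 for figures.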

Additional observations from a re-analysis of the deposited data

Results flagged for a closer look

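The probe assigned to both HSD17B7 and HSD17B7P2 was left out of the comparison because it has 2 symbols, and its signal was higher after SiO2-NP than in the control by 0.63 on the log2 scale (8.60 and 9.23). HSD17B7 is the enzyme between NSDHL and EBP in the pathway. How much of the signal comes from the pseudogene was not tested.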

How the results depend on the processing

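All 9 members were higher in every alternative run (47 values over other scalings, probe rules and, for CYP51A1, each probe alone), and no value moved by more than 0.06 on the log2 scale. Many of the 47 could not move. Only CYP51A1 has more than 1 probe and no member has a probe of several symbols, so the probe rules repeated the main values of the other members. The member median was 0.48 after centring both arrays on their median and 0.57 after quantile normalization. The count of members at 1.5-fold, 2, was 4 with quantile normalization or with running-median centring, 3 with the first CYP51A1 probe alone (chosen after seeing the data), 8 at 25% or more, and 0 at 2-fold, where 1 gene above the filter was higher. Of 56 list medians, 53 moved by less than 0.1, the limit used for a value without replicates. The exceptions were cholesterol use and export, -0.0033 without the filter on dim genes, and, with probes of several symbols counted, the mevalonate arm at 0.44 and the other enzymes after squalene (LBR and HSD17B7) at 0.30. With 100 bases before the start in place of the window, 0 members held CACGTG, because fewer bases were searched, and 6 held CCAAT against 27.3% of genes above the filter. Without the filter on dim genes, 61 genes were at least 1.5-fold higher and 68 lower. No paired analysis was possible because there was 1 array per group, and no replicate could be left out. Pseudocounts, planned for a linear table, were not run.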
